A study of Mus musculus with 2 samples.

Results

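The genes of the type I interferon response were compared between the glomerular regions of wild-type and Sirt1-overexpressing diabetic mice. The group holds 39 genes listed by name, with earlier results of these data known: the OAS and IFIT families, nucleic acid sensors, the ISG15 system, interferon transcription factors, interferon-induced GTPases, other antiviral effectors and a few nuclear regulators. Of these, 37 had at least 1 named probe on the array (48 probes in all) and 35 were measured in both samples, out of 15975 genes measured of 20017 named.

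The study holds 2 one-colour Agilent arrays, 1 per group, and its title concerns Sirt1 of the renal tubule, albuminuria and claudin-1 in podocytes. WT+STZ was a wild-type male C57BL/6J mouse sample and TG+STZ a male sample of the same strain that overexpresses Sirt1, a deacetylase dependent on NAD. Both groups received streptozotocin, a toxin of pancreatic beta cells, in 100 mmol/l citrate buffer at 8 weeks of age and were killed at 32 weeks, so both are diabetic and no non-diabetic sample enters the comparison. RNA came from micro-dissected glomerular regions. The promoter that drives the transgene and the number of mice behind each array are not given in the sources used here.

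With 1 array per group there is no replicate check. The only error available is the one the scanner software attaches to each spot, which covers neither variation between mice nor between dissections, so no test was run and no p-value is given. All differences are TG+STZ minus WT+STZ on a log2 scale, after each array was divided by its 75th percentile, 1945 intensity units for WT+STZ against 2049 for TG+STZ, and ± denotes the scanner error. A gene counts as measured where a probe of it was well above background on both arrays. Signals quoted per array are the unscaled processed values in intensity units, and they are compared between arrays for the same probe only.

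Type I interferons are secreted antiviral cytokines, chiefly the interferon alphas and interferon beta. They bind the receptor formed by IFNAR1 and IFNAR2, whose kinases JAK1 and TYK2 phosphorylate STAT proteins. STAT2 and IRF9 are subunits of the resulting complex ISGF3, which binds the interferon-stimulated response element in the promoters of many interferon-induced genes. Their products sense foreign nucleic acid, block translation, degrade RNA and restrict virus assembly, and one of them, IRF7, feeds back on interferon production. In the kidney, interferon-induced genes are best known from lupus nephritis, viral infection and glomerular disease linked to APOL1 or to interferon treatment.

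Nearly all members had a lower signal in TG+STZ. Of the 35 measured members, 32 lay below 0, where 48.1% of all measured genes did. Centring each array on its median instead left 30 members and 38.2% of all genes below 0, with Irf1 and Igtp moving to just above it. Oas2, Ifih1, Oas1a, Usp18, Oasl1, Ifit1 and Irf7, 7 members in all, were lower by 1.5-fold or more, a size reached by 1.9% of all genes in that direction. No member was higher by 1.5-fold, a size that 1.76% of all genes reached. The members' median difference was -0.30, beside 0.01 over all measured genes. Eif2ak2, Gbp2 and Iigp1 were the 3 members above 0.

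Dim probes spread more than bright ones on these arrays, so the members were also read against genes of like signal. Of the 16 members brighter than the median measured gene, 15 were lower, where 38.8% of such genes were. None of the 16 was lower by 1.5-fold, which 0.701% of such genes reached, and their median was -0.17. Of the 19 dimmer members, 17 were lower, and their median was -0.37. By 1.5-fold, 7 of the 19 were lower, where 3.09% of the dimmer genes were. The share of the dimmer genes below 0 was not counted separately. It must lie above the 48.1% of all measured genes, since that of the brighter ones lies below it. The direction was thus shared by bright and dim members, while the large differences were all among the dimmer ones. The scanner error of the members ran from 0.14 to 0.21, and 23 members lay further from 0 than their own error, 22 of them lower. For 13 members the lower signal exceeded 2 errors. The share of all measured genes beyond their own error was not counted, so these counts have no background beside them. Differences over all measured genes had an SD of 0.26, above the median scanner error of 0.20.

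**Figure D1:**
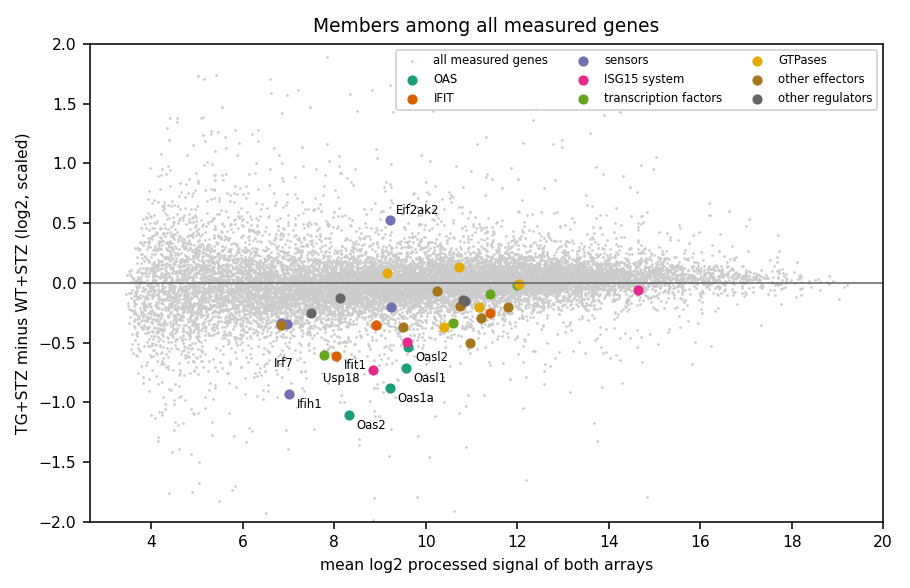
The difference between the arrays (TG+STZ minus WT+STZ, log2, scaled) is plotted against the mean log2 signal of both arrays for every measured gene (grey points) and the 35 measured members, coloured by class. The members lie mostly below 0 at all signals, with Oas2 lowest at -1.11 and Eif2ak2 highest at 0.53; 24 genes beyond the axis limits of -2 and 2 are not drawn.

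Stretches of the promoters that carry the sequence through which ISGF3 acts are printed here because many members share it. RefSeq promoter windows (GRCm38.p6, 250 bases before to 50 after each annotated start) were given for 29 of the 39 members, in 35 promoters. Oas2, Usp18, Dhx58, Zbp1, Mx1, Mx2, Iigp1, Rtp4, Parp9 and Parp14 had no entry. The core of the response element was searched as GAAANNGAAA on both strands, with overlapping matches counted. It was found in 18 of the 35 member promoters (51.4%), of 17 genes, against 1131 of all 32851 promoters of the table (3.44%). The gamma-activated site, the motif of the interferon gamma response, searched as TTCNNNGAA, which reads the same on both strands, was found in 7 of the 35 (20%) against 8.30% of all promoters. In 1 case the motifs overlapped each other. The windows below run 5′ to 3′ on the strand of the gene, with 10 bases on each side of the match where the promoter window allows, and the capitals mark every base covered by a match (TTTC copies are the same core read from the other strand).

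The windows of Isg15, Oas1a, Ifit1, Ifih1 and Bst2 are from members lower in TG+STZ, those of Igtp, Gbp2 and Eif2ak2 from members near or above 0, and that of Oas1g is shown beside its close copy Oas1a.
Isg15: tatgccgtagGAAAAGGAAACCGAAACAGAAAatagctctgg
Oas1a: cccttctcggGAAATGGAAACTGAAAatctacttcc
Oas1g: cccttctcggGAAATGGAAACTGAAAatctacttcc
Ifit1: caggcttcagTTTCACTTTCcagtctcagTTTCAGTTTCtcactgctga
Ifih1: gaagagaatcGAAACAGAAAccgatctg
Bst2: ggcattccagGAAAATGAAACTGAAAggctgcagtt
Igtp: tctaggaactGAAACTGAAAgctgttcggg
Gbp2: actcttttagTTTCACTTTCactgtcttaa
Eif2ak2: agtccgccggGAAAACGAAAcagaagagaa

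In GRCm38.p6 these lie at chr4:156200865-156200906 on the minus strand for Isg15, chr5:120907520-120907555 on the minus strand for Oas1a and chr5:120887606-120887641 on the minus strand for Oas1g. The Ifit1 window is chr19:34640775-34640823 on the plus strand, that of Ifih1 chr2:62646206-62646233 on the minus strand and that of Bst2 chr8:71537577-71537612 on the minus strand. The Igtp window is chr11:58199512-58199541 and the Gbp2 window chr3:142620594-142620623, both on the plus strand, and that of Eif2ak2 is chr17:78882535-78882564 on the minus strand. All matches lie upstream of the annotated start except those of Ifih1 and Eif2ak2, which begin 32 and 18 bases after it. The printed windows of Oas1a and Oas1g run past the start, though their matches end before it. Isg15 holds 3 overlapping matches, Oas1a, Oas1g and Bst2 hold 2 overlapping ones, and Ifit1 holds 2 separate ones. The printed windows of Oas1a and Oas1g carry the same letters. For wider context, the 250 bases before the start are given for Isg15 (chr4:156200819-156201068, minus strand) and Ifit1 (chr19:34640639-34640888, plus strand), the gene with the ubiquitin-like product and the first of the IFIT family.
Isg15: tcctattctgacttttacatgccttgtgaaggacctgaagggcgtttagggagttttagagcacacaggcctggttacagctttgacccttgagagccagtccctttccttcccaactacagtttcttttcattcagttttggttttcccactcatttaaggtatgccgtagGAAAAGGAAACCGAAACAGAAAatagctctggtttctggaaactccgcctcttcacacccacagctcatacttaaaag
Ifit1: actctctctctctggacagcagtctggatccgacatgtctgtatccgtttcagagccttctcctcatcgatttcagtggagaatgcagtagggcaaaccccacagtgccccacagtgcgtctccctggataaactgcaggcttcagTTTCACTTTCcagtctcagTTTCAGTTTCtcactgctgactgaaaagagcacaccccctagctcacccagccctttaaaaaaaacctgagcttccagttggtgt

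The match did not set the lower members apart. Of the 15 measured members with the core in a promoter, 13 were lower, 3 of them by 1.5-fold, with a median of -0.25 and a range from -0.93 (Ifih1) to 0.53 (Eif2ak2). All 12 measured members in the table without a match were lower, 2 by 1.5-fold, with a median of -0.30. Of the 8 not in the table, 7 were lower, 2 by 1.5-fold, and their median was -0.34. A match in these letters is a description of sequence, and its absence says only that the letters are not in this window.

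**Figure D2:**
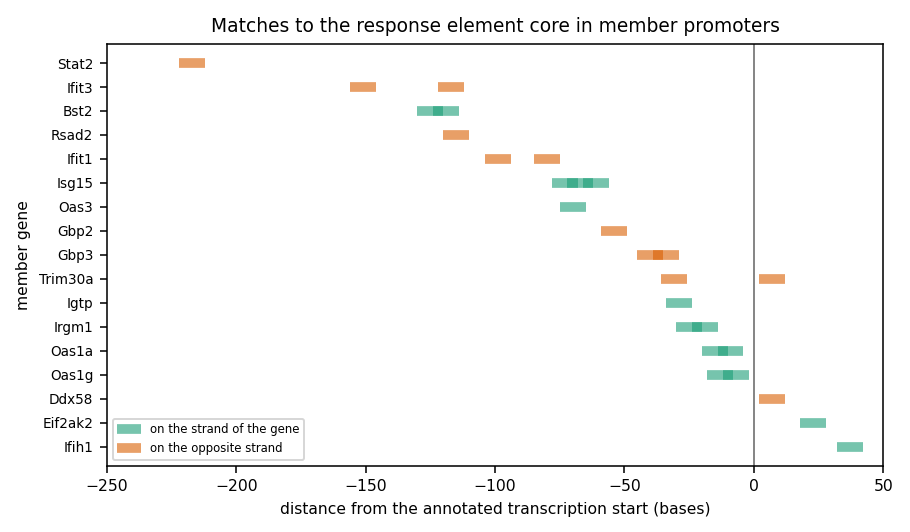
Each bar is a match to GAAANNGAAA in the promoter of a member, placed by its distance in bases from the annotated transcription start, on the gene's strand (green) or the opposite strand (orange), with darker stretches where matches overlap. Matches stand between 222 bases before the start (Stat2) and 42 bases after it (Ifih1), and Isg15 carries 3 overlapping ones.

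Among the members, the OAS family differed most. These enzymes make the second messenger 2′-5′-oligoadenylate when they bind double-stranded RNA, which activates RNase L. All 4 measured OAS members were lower, with a median of -0.80. Oas2, a membrane-associated member, gave 458 in WT+STZ and 224 in TG+STZ, a difference of -1.11 ± 0.20 or 2.15-fold, and was 56th from the lowest of the 15975 measured genes. It was the only measured member past 2-fold. Oas3, described below by a bound, was not measured on both arrays. Oas1a, the mouse gene closest to human OAS1, was measured by 2 probes that moved alike, from 1815 to 1040.1 and from 341 to 195, each -0.88, and the gene's difference was -0.88 ± 0.14. Both probes of Oas1a were thus 1.84-fold lower in TG+STZ.

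The OAS-like genes were lower as well. Oasl1, whose product represses translation of Irf7 mRNA, gave 948 and 609.9, a difference of -0.71 ± 0.20. Oasl2, an OAS-like protein that keeps synthetase activity in the mouse, gave 915 and 662, or -0.54 ± 0.20. Oas3, which senses long double-stranded RNA, was well above background in WT+STZ only, at 16.6 against 3.60 in TG+STZ. Set against the lowest signal that passed as above background in TG+STZ, the bound was 1.80-fold lower there, or 0.85 in log2. The scanner error of its difference was larger than that bound, at 1.03, so the size of the Oas3 difference cannot be told. The 2 probes of Oas1g were not well above background on either array (2.27 against 2.05 for one and 6.68 against 2.25 for the other), so no fold is given. The mouse Oas1 genes are near-identical copies, and a probe named for one can take up transcripts of another, so the values of Oas1a and Oas1g cannot be assigned to a single copy with certainty.

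**Figure D3:**
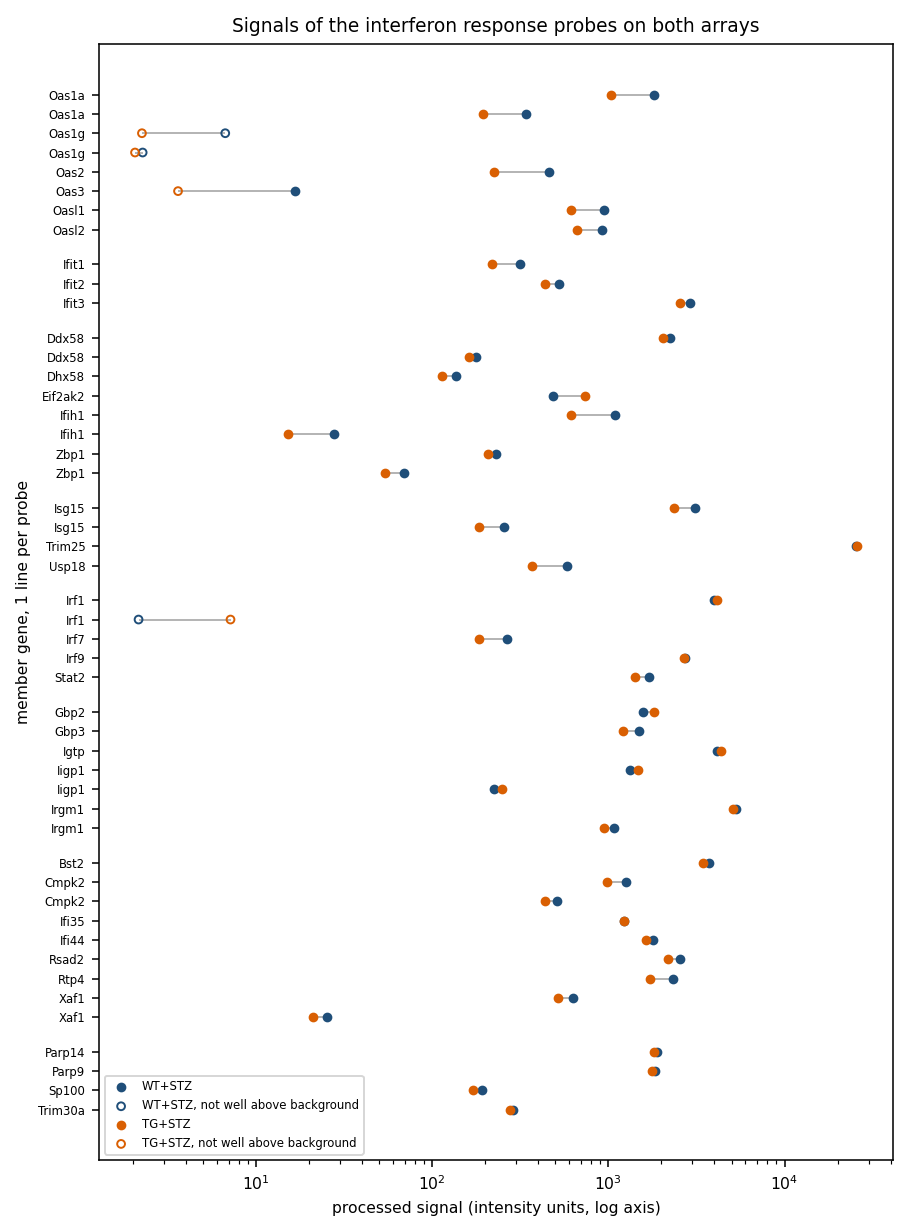
The processed signal in WT+STZ (blue) and TG+STZ (orange) is plotted on a log axis in intensity units for each of the 48 member probes, grouped by class, with open symbols where a probe was not well above background. The TG+STZ symbol lies to the left for both Oas1a probes (1815 to 1040.1 and 341 to 195) and to the right for Eif2ak2 (486 to 738).

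All 3 IFIT members, tetratricopeptide proteins that bind foreign RNA ends and block translation, were lower, with a median of -0.35. Ifit1, whose product binds RNA caps that lack 2′-O methylation, gave 316 in WT+STZ and 218 in TG+STZ, a difference of -0.61 ± 0.20. Ifit2 gave 526 and 436 (-0.35 ± 0.20), and Ifit3, which stabilises IFIT1 in complexes, gave 2892 and 2560.1 (-0.25 ± 0.20). The difference was thus smaller for Ifit3 than for Ifit1, though their errors overlap. Ifit genes have close copies in the mouse, so cross-hybridisation within the family is possible here too.

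The sensors did not share 1 direction. Ifih1 encodes MDA5, which detects long double-stranded RNA and signals through MAVS. Its probes gave 1097 and 27.8 in WT+STZ against 611 and 15.2 in TG+STZ, differences of -0.92 and -0.94, and the gene's difference was -0.93 ± 0.21. Ddx58, which encodes RIG-I, the sensor of RNA with a 5′ triphosphate, differed less, with 2230.2 and 177 against 2042 and 163 (-0.20 ± 0.14). Dhx58 encodes LGP2, a regulator of both, and gave 137 and 114 (-0.35 ± 0.21). Zbp1, the sensor of Z-form nucleic acid that triggers necroptosis, gave 229.7 and 68.9 against 207 and 53.6 (-0.33 ± 0.15).

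Eif2ak2 went the other way. It encodes PKR, the kinase that shuts down translation by phosphorylating eIF2 alpha, and its single probe gave 486 in WT+STZ and 738 in TG+STZ, a difference of 0.53 ± 0.20. That is 1.44-fold higher, below the 1.5-fold mark, and it placed the gene 15620th from the lowest of 15975. Its promoter holds the response element core, printed above, as do those of 13 lower members. All 12 measured members in the promoter table without a match were lower as well.

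ISG15 is a ubiquitin-like protein joined to other proteins during the interferon response, and the 3 members of its system were lower by unequal amounts. The 2 Isg15 probes gave 3093 and 254 in WT+STZ against 2372 and 185 in TG+STZ, differences of -0.46 and -0.53, for a gene difference of -0.50 ± 0.14. Usp18, the protease that removes ISG15 and restrains signalling at IFNAR2, gave 581 and 369, or -0.73 ± 0.20. Trim25, a ubiquitin and ISG15 ligase that acts on RIG-I, was the brightest member at 25586 and 25819, with a scaled difference of -0.06 ± 0.20. Isg15 and Usp18 were therefore lower by more than their error, and Trim25 was within it.

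Of the transcription factors, Irf7 differed most. It is the interferon-induced factor that amplifies interferon alpha transcription, and it gave 265 in WT+STZ and 184 in TG+STZ, a difference of -0.61 ± 0.20. The ISGF3 subunit Stat2 gave 1707 and 1421 (-0.34 ± 0.20). The other ISGF3 member, Irf9, gave 2711 and 2677 (-0.09 ± 0.20), and Irf1, which responds to interferon gamma as well, gave 3978 and 4145 (-0.02 ± 0.20). A second Irf1 probe was not well above background on either array. Irf7 and Stat2 were thus lower by more than their error, and Irf9 and Irf1 lay within it.

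The GTPases, which attack intracellular vacuoles and respond strongly to interferon gamma, centred on 0, with a median of -0.01 (0.03 after median centring, 0.01 on the spike-ins) and 3 of 5 lower. Gbp3 was lower (1486 and 1215, -0.37 ± 0.20), and Gbp2 was slightly higher (1576 and 1825, 0.14 ± 0.20). Igtp, also called Irgm3, gave 4137 and 4336, a difference of -0.01 ± 0.20. Its probe was printed as 10 spots on each array, whose signals ran from 4002 to 4281 in WT+STZ and from 4212 to 4526 in TG+STZ, a log2 SD of 0.04 on both. These repeat spots show how closely 1 array reads the same RNA, and nothing of the spread between animals.

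The remaining GTPases had 2 probes each. Irgm1, needed for control of autophagy and of the effector GTPases, gave 5302 and 1079 against 5078 and 949.8 (-0.20 ± 0.14). Iigp1, an effector against Toxoplasma, gave 1321 and 223 against 1476 and 249, with each probe at 0.08 and the gene at 0.08 ± 0.14. Gbp2, Igtp and Iigp1 lay within their error of 0. Mx1 and Mx2, the dynamin-like antiviral GTPases, could not be matched to a named probe and were not analysed here.

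All 7 other antiviral effectors were lower, with a median of -0.30. Rtp4, which restrains the interferon response and binds viral replication complexes, gave 2317 and 1727 (-0.50 ± 0.20). Rsad2 encodes viperin, which makes a chain-terminating nucleotide, and gave 2552 and 2187 (-0.30 ± 0.20). Cmpk2, its genomic neighbour and a mitochondrial nucleotide kinase, gave 1256 and 511 against 977 and 436 (-0.37 ± 0.14). Rtp4 and Cmpk2 were lower by more than 2 errors, and Rsad2 by more than 1.

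Xaf1, a pro-apoptotic factor, was lower with both probes, at 634 and 25.1 against 519 and 20.9 (-0.35 ± 0.17). Bst2, or tetherin, which holds budding virions at the membrane, gave 3749 and 3429.8 (-0.20 ± 0.20). Ifi44 gave 1787 and 1642 (-0.20 ± 0.20), and Ifi35 gave 1221 and 1225 (-0.07 ± 0.20). Of the nuclear regulators, the nuclear body protein Sp100 (192 and 169.6, -0.25 ± 0.20), the ADP-ribosyltransferases Parp9 (1848 and 1767, -0.14 ± 0.20) and Parp14 (1899.6 and 1803, -0.15 ± 0.20), and Trim30a, an inhibitor of NF-kappa B signalling (286 and 276, -0.13 ± 0.20), were all below 0. Only Sp100 among these 4 was below 0 by more than its error.

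**Figure D4:**
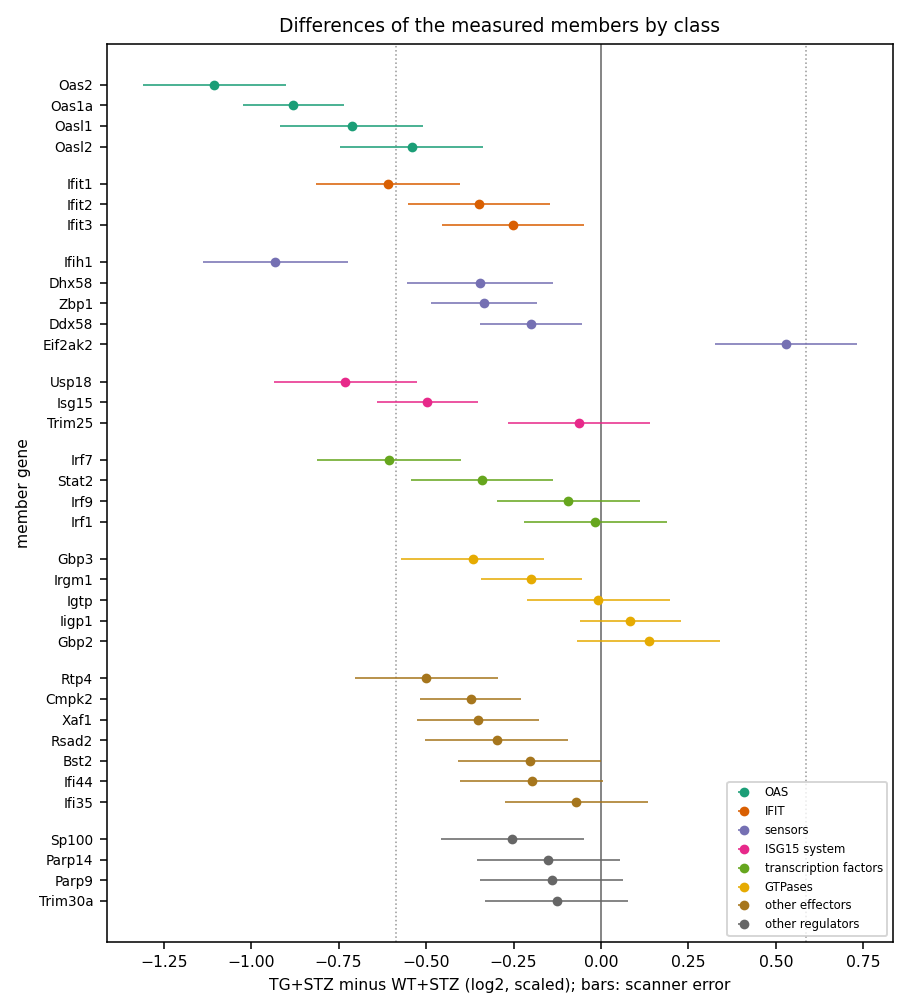
The scaled log2 difference (TG+STZ minus WT+STZ) of each of the 35 measured members is plotted with the scanner error as bars, ordered within classes, with dotted lines at a 1.5-fold difference. Oas2 lies furthest to the left (-1.11), followed by Ifih1 (-0.93) and Oas1a (-0.88), the GTPases lie around 0, and Eif2ak2 lies to the right at 0.53.

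Members read by several probes gave an internal check of the direction. Of the 9 members with more than 1 measured probe, 9 had all probes on the same side of 0, as 64.7% of the 4153 such genes on the array did. The gap between a member's probes had a median of 0.02 and was at most 0.21 (Zbp1), where the median gap over all such genes was 0.09. Probes of 1 gene read the same RNA sample, so this bears on the measurement and not on the spread between mice.

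Genes upstream of the members were also looked at. Of 21 interferon genes, 16 were on the array and 12 were measured, 9 of them lower, none by 1.5-fold in either direction, with a median of -0.09 (-0.04 under loess, -0.19 under normexp). Ifna4, Ifna16, Ifnb1 and Ifne were not well above background on both arrays. The 4 furthest from 0 were Ifna13 (73.6 and 55.2, -0.49 ± 0.22), Ifnl3 (420.1 and 335, -0.40 ± 0.20), Ifnk (138 and 111, -0.39 ± 0.21) and Ifna7 (26.8 and 22.7, -0.32 ± 0.28). Interferon alpha genes are near-identical, so these probes may not separate them.

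Of the 10 receptor and JAK-STAT genes, all were measured, 4 were lower and the median was 0.06 (-0.01 under normexp background correction). The 4 furthest from 0 were Ifngr1 (-0.31), Ifngr2 (0.21), Ifnar2 (0.16) and Jak1 (0.13). Of 16 upstream sensing and adaptor genes, 15 were measured, 9 were lower and the median was -0.02, with Ikbke (-0.43 ± 0.22), Irf5 (0.17), Mb21d1 (-0.16 ± 0.15), which encodes cGAS, and Traf3 (0.13) furthest from 0. Of 11 brakes on interferon signalling, 7 were lower with a median of -0.01, and the furthest from 0 were Socs1 (-0.15), Samhd1 (-0.11), Socs3 (-0.10) and Adar (-0.08). No gene of these 3 lists reached 1.5-fold.

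Beyond the members, other interferon-stimulated genes shifted less as a group. Of 64 listed, 53 were measured and 39 were lower, with a median of -0.12, 6 lower and 1 higher by 1.5-fold. Of all measured genes, 48.1% were lower, 1.9% were lower by 1.5-fold and 1.76% higher by 1.5-fold. Slfn8, a schlafen family gene, gave 201 in WT+STZ and 80.9 in TG+STZ (-1.39 ± 0.21), a larger difference than that of any member. Ifi27l2a, a small interferon-induced membrane protein, gave 6290 and 3214 (-1.04 ± 0.20). Apol9b, an apolipoprotein L family gene, gave 869 and 471 (-0.96 ± 0.20). Ly6e, an interferon-induced surface protein, was the exception at 18721 and 33487, a difference of 0.76 ± 0.20.

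Genes that respond more to interferon gamma than to type I interferon sat close to the other interferon-stimulated genes, with 12 of 16 measured lower, none past 1.5-fold, and a median of -0.11. The chemokine gene Cxcl10 gave 2145 and 1789 (-0.34 ± 0.20), and Ciita, the regulator of MHC class II transcription, gave 53.6 and 69.1 (0.29 ± 0.22). Gbp7 (-0.27) and Gbp5 (-0.21) followed. Counts and medians are all that 1 array per group allows for these lists, and none is shown to differ from another.

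Immune cells carry many of these transcripts, and several of their markers were also lower in TG+STZ. Of 41 immune cell markers on the array that are not members, 35 were measured and 29 were lower, 5 by 1.5-fold, with a median of -0.15. Over all measured genes, 48.1% were lower and 1.9% were lower by 1.5-fold, or 3.09% among the dimmer genes. In bulk tissue, fewer cells of a type and less RNA per cell cannot be told apart. The summed marker signal was 146343 in WT+STZ and 143052 in TG+STZ, a scaled difference of -0.11. Nearly all of that sum came from Csf3r (128335 and 125418), so the separate lists carry more information than the total. The other measured neutrophil markers, S100a9, S100a8 and Retnlg, gave only 511, 148 and 45.2 in WT+STZ. Whether the Csf3r probe reads neutrophil RNA was not tested. The part of immune cells in the lower signals of the members was not tested.

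Of the macrophage and monocyte markers, 9 of 10 measured were lower, with a median of -0.12 and a summed signal of 9537 against 9255. Csf1r (-0.17) and Cd14 (-0.12) were the brightest, and Mrc1 (0.36) and Ccr2 (-0.27) the furthest from 0. Of the neutrophil markers, 3 of 4 measured were lower, with a median of -0.37: S100a9 (511 and 318, -0.76), S100a8 (148 and 100.4, -0.64) and Csf3r (-0.11). Retnlg was at 0.20, and Cxcr2 and Mmp9 were not well above background on both arrays. Of the T and NK cell markers, 9 of 10 measured were lower, with a median of -0.35 and a sum of 3403 against 3034. The brightest were Cd3e (1165 and 1135, -0.11) and Nkg7 (508 and 441, -0.28), and the furthest from 0 were Cd8b1 (37.7 and 17.6, -1.18 ± 0.27) and Cd8a (-0.66).

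All 5 measured B cell markers were lower, with a median of -0.43 and a sum of 776 against 602, led by Ms4a1 (97.2 and 59.2, -0.79) and Cd79b (402 and 298, -0.51). Cr2 was at -0.23, and Pax5 and Blk were not well above background on both arrays. Of the dendritic cell list, 4 of 7 measured genes were lower, with a median of -0.02 and a sum of 7336 against 7700.3. In that list Siglech, a marker of plasmacytoid dendritic cells, which are major producers of interferon alpha, gave 2763 and 3447 (0.24 ± 0.15), and Ccr9 was at 0.22. Bst2 stands on that list and among the members. These list medians depend on the few probes behind them. The B cell median was -0.23 with no filter on dim probes, and the dendritic median was -0.16 under normexp and -0.13 with the brightest probe of each gene. Among genes brighter than the median gene, Csf3r (-0.11) was the only neutrophil marker left. Cd3e (-0.11) was the only T and NK cell marker left there, so neither value is a median of several genes.

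The labelled tissue was checked in the same way. All 10 podocyte markers and all 8 glomerular endothelial markers were measured, with medians of -0.03 and -0.10. Nphs1, which encodes nephrin, gave 827 and 471 (-0.89), while Cdkn1c was at 0.16 and the median of the list lay near 0. Of the endothelial genes, Flt1 (-0.14) and Kdr (-0.08) were the brightest and Plat (-0.30) and Tie1 (-0.25) the furthest from 0. Tubule genes were also strongly present: Kap, of the proximal tubule, gave 596225 and 619059 (-0.02), and Umod, of the thick ascending limb, gave 280541 and 306908 (0.05). Miox (-0.14), Slc22a6 (0.27) and Slc5a12 (0.25) of the proximal tubule and Slc12a1 (-0.15), Atp6v1g3 (-0.43) and Aqp2 (-0.43) of the distal nephron were the others named by brightness or distance from 0. The medians of the proximal tubule and distal nephron lists were -0.02 and -0.15. The dissected regions therefore held tubule RNA as well as glomerular RNA on both arrays, and the values describe the mixture. Sirt1 itself gave 2625 and 2977 (0.11 ± 0.20) with 1 probe, which does not show whether the transgene transcript is read by it.

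**Figure D5:**
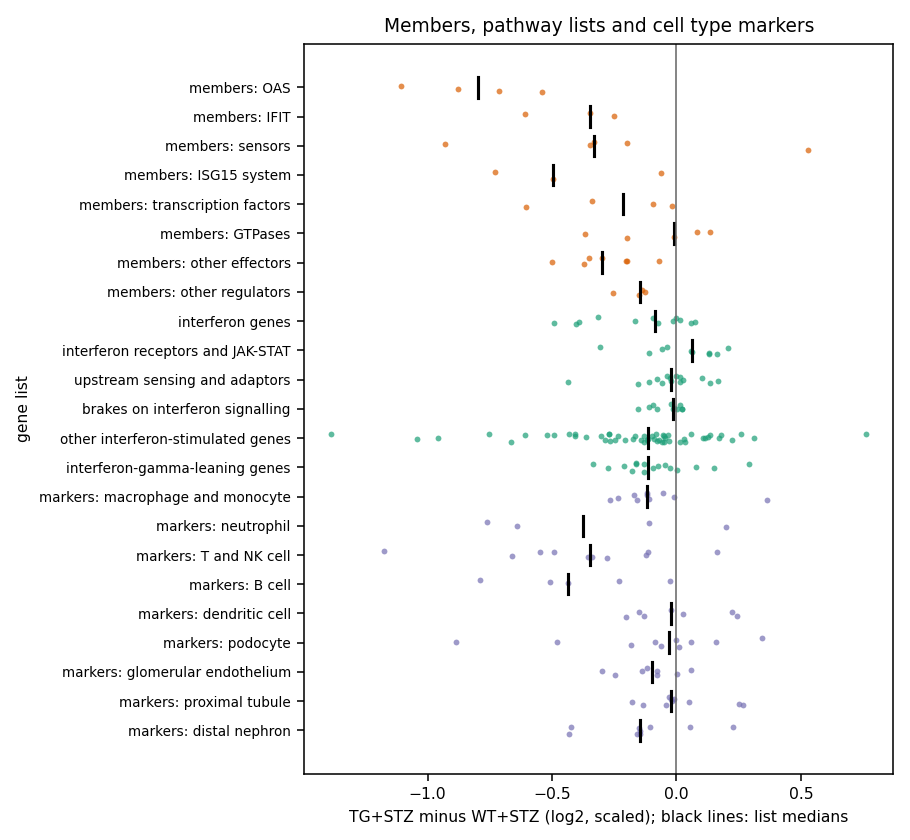
Each point is the scaled log2 difference (TG+STZ minus WT+STZ) of 1 measured gene, grouped by member class (orange), interferon pathway list (green) or cell type marker list (purple), with a black line at the median of each list. The OAS members have the lowest median (-0.80), receptor and JAK-STAT genes lie at 0.06 (-0.01 under normexp), and B cell markers at -0.43.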

How the data were processed

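The deposited scanner tables give a processed signal per spot as a linear intensity, background-subtracted by Agilent Feature Extraction (10.7.1.1 per the file headers, 10.3.1.1 per the submitters' processing notes). The authors' deposited value table holds the same values at 44397 of 44397 spots. Control and outlier spots were left out. The log2 of each intensity was centred on the array's 75th percentile over gene probes, and spots of a probe, then probes of a gene, were averaged. The centring shifted the arrays by 0.08. A probe was used if well above background and unsaturated on both arrays: 75.0% and 76.3% of gene spots passed the first flag, and 0 were saturated. The number of arrays limits the precision.

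Differences over all 15975 measured genes had a median of 0.01, an SD of 0.26 and a central 95% range from -0.52 to 0.50, with a median scanner error of 0.20. Of 39426 probes, 26410 carried a gene symbol and 13016 did not. The error of a gene is the root of its probes' summed squared errors over their number.

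The members and lists were chosen with earlier results of these data known. Every member is accounted for. Of each pathway list the 4 genes furthest from 0 are named, and of each marker list the 2 brightest and the 2 furthest from 0; Sirt1 was named besides, and some genes that the rule names are not reported here. Alternatives were other scalings (median, detected probes, quantile, loess with span 0.3, spike-ins), normexp (offset 50), the value table, other filters, the brightest probe and a 2-fold threshold. Normexp ran in limma 3.58.1 (R 4.3.3), and all else, quantile normalization included, in Python 3.11.15 with pandas 2.3.3, numpy 2.4.6 and statsmodels 0.14.6.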

Additional observations from a re-analysis of the deposited data

How the results depend on the processing

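Every alternative kept the members' median below 0 and most members lower. The OAS median was -0.91 with no filter and -0.99 with the laxer flag, against -0.80. The count of lower members was 30 of 35 after median centring or spike-in centring, 32 of 35 under the other scalings, normexp, the value table and the brightest probe, 33 of 37 with no filter on dim probes and 34 of 37 with the laxer flag. The count lower by 1.5-fold was 5 after median centring, quantile, loess or normexp and 9 with no filter or the laxer flag, and the median ran from -0.33 to -0.25, the latter also without the OAS family. Restricting to genes brighter than the median gene left 15 lower members, 0 by 1.5-fold and a median of -0.17, and at the 2-fold threshold 1 member was lower; the first has fewer genes and the second a stricter threshold by construction. The share of all genes below 0 was 38.2% after median centring, 56.3% with the percentile over detected probes and 62.4% under normexp, against 48.1%. Over all genes, 303 were lower and 281 higher by 1.5-fold, against 149 and 109 under normexp, 843 and 746 with no filter and 666 and 582 with the laxer flag. Irf1 was at 0.82 with no filter, where its dim probe enters, and Ifih1 was at -0.63 under normexp, against -0.93. Ifit1 and Irf7 fell short of 1.5-fold after median centring, quantile, loess and normexp, lying at -0.44 and -0.48 under normexp. List medians within 0.04 of 0 changed sign after median centring (upstream sensing 0.01, brakes 0.02, and podocyte, proximal tubule and dendritic cell markers), and the dendritic list did so in other settings too. With no filter the median of the interferon genes was -0.13, and with the laxer flag that of the B cell markers was -0.23. The cause of the other shifts was not tested. No paired analysis was possible because each group has 1 array. No sample could be left out for the same reason, and no result has a replicate check.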

Other observations

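The response element core was looked at in genes that are no members. Of the 472 other measured genes with the core in a promoter, 51.7% were lower in TG+STZ and 15 (3.18%) by 1.5-fold or more, with a median of -0.01. Of the 12194 measured genes in the promoter table without it, 47.7% were lower and 1.82% by 1.5-fold or more, with a median of 0.01. The core stood in 24 of the 54 other interferon-stimulated genes with a promoter entry, in 11 of 20 interferon genes, in 0 of 8 receptor and JAK-STAT genes and in 1 of 37 promoters of immune cell markers. These are counts of letters and of single differences between a pair of arrays, with no test.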
